A study of Mus musculus with 4 samples.

Results

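The semaphorin, ephrin, netrin and Slit guidance cues and their receptors were examined in cultured mouse aortic smooth muscle cells with a floxed or a normal Atg7 gene. The genes were chosen by symbol alone: every semaphorin of classes 3 to 7, plexin, neuropilin, ephrin, Eph receptor, netrin from Ntn1 to Ntn5, Unc5 receptor, Robo receptor from Robo1 to Robo3 and Slit for which the array carried a probe. This gave 67 of the 28307 genes on the array, represented by 119 probes. Of the 67 genes, 45 were measured, which means that in 1 or both genotypes a probe of the gene exceeded background clearly on all 4 arrays. The measured genes were read by 58 probes.

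The cells were primary aortic smooth muscle cells from mice whose strain label reads C57LB/6. One group carried the genotype Atg7F/F SM22α-Cre+, in which both alleles of the autophagy gene Atg7 are flanked by loxP sites and Cre recombinase is driven by the smooth muscle promoter of SM22α. The control group was Atg7+/+ SM22α-Cre+, so both groups were labelled as carrying Cre. The culture medium was DMEM/F-12 containing 10% FBS, and passages 4 to 10 were used. The age of the animals and the number of animals behind each culture are not given in the sources used here. Each genotype had 2 biological replicates, and p-values measure only the spread between these cultures. RNA of a mutant and a control culture of the same replicate number was hybridised together on 2 Agilent arrays with the dyes exchanged, which made 4 arrays. Every log2 ratio is that of Atg7F/F over Atg7+/+. The dye-swapped arrays of a replicate were averaged first, and a mean ± SD is over both replicates (n = 2). The comparison asks which transcripts differ between the genotypes in aortic smooth muscle cells. Atg7 is the E1-like enzyme of autophagosome formation.

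Guidance cues were named for steering growing axons, and the same ligands and receptors act in blood vessels. Secreted class 3 semaphorins bind neuropilins, which lack a large signalling domain and act through plexins, while membrane-bound semaphorins bind plexins directly. Ephrins are bound to the membrane and signal in both directions through the Eph receptor tyrosine kinases on the neighbouring cell. Ephrin-B2 marks arteries and EphB4 marks veins during vessel development. Netrins signal through Dcc-type and Unc5 receptors, and Slits through Robo receptors, and both act on small GTPases that control the actin cytoskeleton and cell movement.

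The array reads each gene with DNA probes of 60 bases, and the first 30 bases of the probes behind the results on Slit2, Slit3, Ephb4, Efnb2, Nrp2 and Unc5a are given here 5′ to 3′ to show what was hybridised. Both Slit2 probes are shown because they were read separately.
Slit3: aatatgtcttccagtgcacggacggctcct
Slit2, first probe: cctccttcaggacacttgcagaaggtttgc
Slit2, second probe: gacacatcgagcacaagtgtgtgagtgaga
Ephb4: tttgatgtcctgacttgctgtcaccaccaa
Efnb2: gtcatcggttggctacgttttggttctatg
Nrp2: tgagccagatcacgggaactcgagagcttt
Unc5a: agcttgtgtcctgactctgtcttaagtgca
On mm9 as the files give it, the whole probes lie at chr11:35521559-35521618 on the plus strand for Slit3, chr5:48696502-48696561 and chr5:48695876-48695935 on the plus strand for Slit2, and chr5:137815289-137815348 on the plus strand for Ephb4. The Efnb2 probe lies at chr8:8618177-8618236 on the minus strand, the Nrp2 probe at chr1:62865129-62865188 and the Unc5a probe at chr13:55107242-55107301, both on the plus strand. The part of the transcript that each probe reads is not stated, since gene models of that build were not used here. The longest run of bases that one of these probes shared with the probe of another guidance gene was 10 of 60 bases, between Ephb4 and Unc5a. Over all 58 probes the longest such run was also 10 bases.

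Receptors and ligands of every family were measured in these cells. The measured genes comprised 12 of 20 semaphorins, 9 of 11 plexins and neuropilins, 6 of 8 ephrins, 8 of 14 Eph receptors, 5 of 8 netrins and Unc5 receptors, and 5 of 6 Slits and Robos. Of the 22 genes that were not measured, 14 were well above background on no array. These were the semaphorins Sema3c, Sema3d, Sema4g, Sema6a and Sema7a, the ephrins Efna2 and Efnb3, the receptors Epha5, Epha6, Epha8, Epha10 and Ephb1, and Ntn5 and Unc5d. The other 8 passed background in a genotype's channel on some arrays only: Sema3a, Sema3g, Sema4b, Plxnb3, Plxnc1, Ephb6, Ntn1 and Robo2. Sema3a, the neuropilin-1 ligand that repels axons, was above background in the mutant channel on 3 arrays and in the control channel on 2. The brighter of the Ntn1 probes was above background in the control channel on 1 array and in the mutant channel on 0. For these 22 genes a difference between the genotypes was not detectable at this signal, and no ratio is given.

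**Figure D1:**
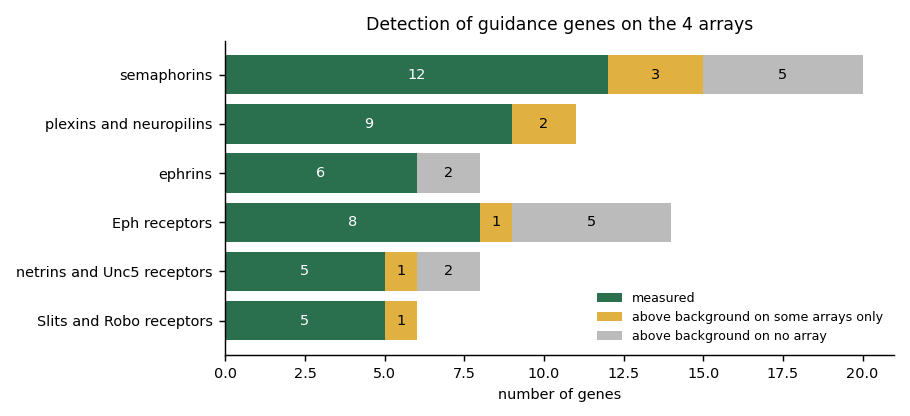
Number of guidance genes (x axis) in each of 6 role groups (y axis) that were measured (green), well above background on some arrays only (yellow) or on no array (grey). Plexins with neuropilins and Slits with Robos had no gene that was dark on every array, against 5 of 20 semaphorins and 5 of 14 Eph receptors.

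No guidance gene passed the test. With limma and Benjamini-Hochberg adjustment over all 12367 genes tested, 0 of the 45 measured genes had an adjusted p below 0.05, as did 0% of all genes. Without adjustment 0 of the 45 were below 0.05, against 2.98% of all genes. The smallest unadjusted p among the guidance genes was 0.0658, for Ephb4, with an adjusted p of 0.9998. The median absolute ratio was 0.12 beside 0.07 over all genes tested. Signed ratios had a median of 0.01 beside 0.00. They ran from -0.66 for Unc5a, which was not well above background in 1 mutant culture, to 0.57 for Slit3, a 1.49-fold higher mean in the mutants. Of the 45 ratios, 43 lay within 0.5 log2 units of 0, as did 97.6% of those of all genes. With only 2 replicates, an exact two-sided sign-flip test of a single gene cannot go below p = 0.5.

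The ratio was positive on all 4 arrays for 8 of the 45 genes, where 10.6% of all genes were. These were Slit3, Ephb4, Ephb2, Unc5b, Efnb2, Plxna3, Efna4 and Sema5b. The ratio was negative on all 4 arrays for 3 genes, Plxna2, Plxna4 and Efna5, where 9.95% of all genes were. With the arrays centred on their median instead of loess-normalised, these counts were 3 and 0, and the shares over all genes were 4.86% and 2.14%.

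**Figure D2:**
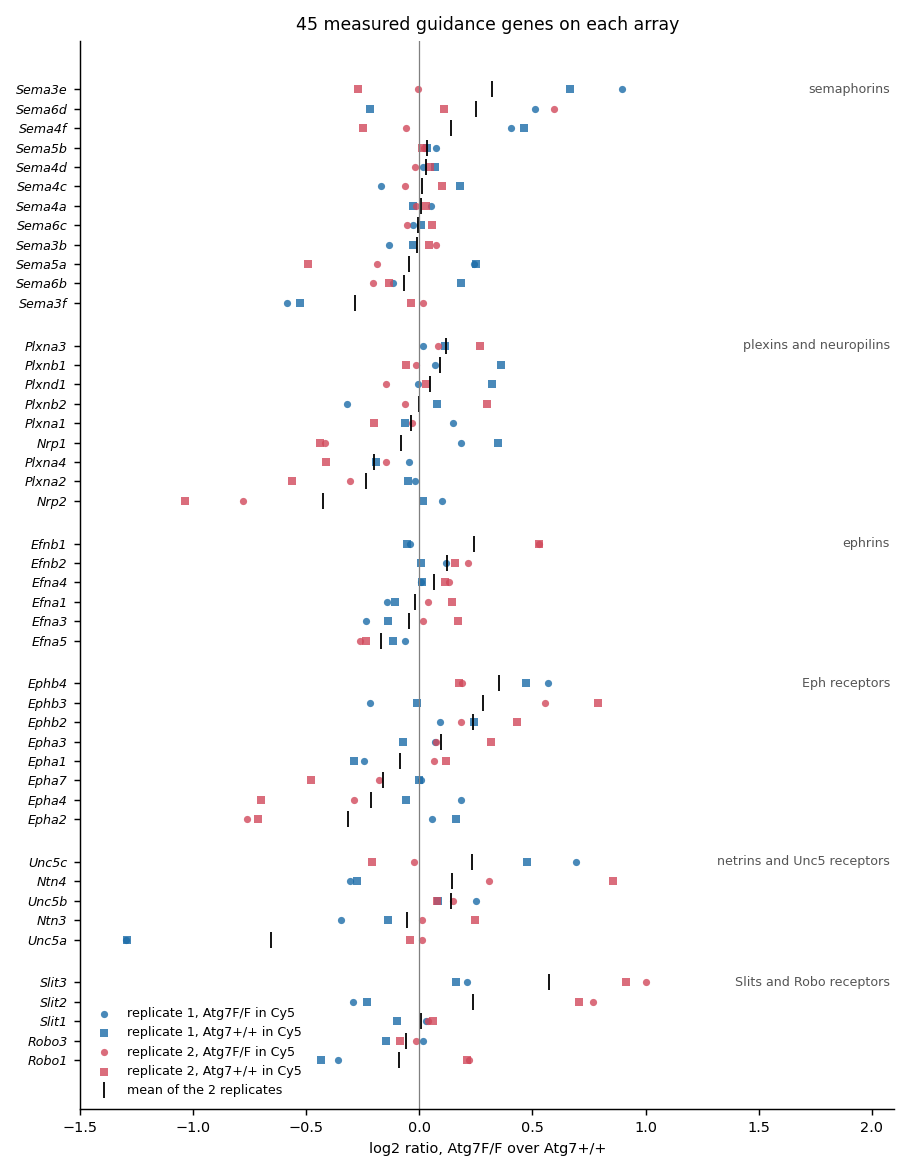
Log2 ratio of Atg7F/F over Atg7+/+ (x axis) for the 45 measured guidance genes (y axis), ordered by role group and mean ratio. Blue points are the 2 arrays of replicate 1, red points those of replicate 2, circles have Atg7F/F in Cy5, squares have Atg7+/+ in Cy5, and the black bar is the mean of the replicates. Points of one colour lie close together for most genes, while the colours part for Unc5a, Slit2, Slit3, Nrp2 and Epha2.

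Among the Slits, large secreted ligands of Robo receptors, Slit3 had the largest positive ratio of all guidance genes. Its normalised log2 signal was 12.05 and 12.53 in the mutant cultures of replicates 1 and 2 and 11.86 and 11.57 in the control cultures. Both mutant cultures were above both control cultures, a separation whose share over all genes was not counted. On single arrays of replicate 1 the ratio was 0.21 and 0.16, and on those of replicate 2 it was 1.00 and 0.91, which gave 0.57 ± 0.55 with an unadjusted p of 0.086. Dye-swapped arrays of Slit3 thus gave nearly the same ratio, and the spread lay between the replicates.

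Slit2, the other Slit with a strong signal, had opposite ratios in the replicates. Its log2 signal was 12.52 and 12.26 in the mutant cultures and 12.78 and 11.52 in the control cultures. The control cultures therefore stood on either side of the mutant ones, and replicate 2 of the controls was the lowest of the 4. The ratio was -0.26 in replicate 1 and 0.74 in replicate 2, with a mean of 0.24 ± 0.71. The second Slit2 probe, which lies upstream of the first on the same strand, gave -0.26 and 0.96. The probes of Slit2 therefore gave the same pair of opposite signs.

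Slit1 had a ratio of 0.01 ± 0.06. Robo1, a Slit receptor of vascular and neural cells, had -0.40 in replicate 1 and 0.22 in replicate 2, a mean of -0.09 ± 0.43. Robo3, a divergent Robo best known from commissural axons, had -0.06 ± 0.01. As with Slit2 and Slit3, the replicate 2 ratio of Robo1 was the higher one.

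Among the Eph receptors, the 3 measured genes of the B class had the highest mean ratios. Ephb4, the receptor of ephrin-B2, had log2 signals of 8.80 and 8.67 in the mutant cultures and 8.28 and 8.49 in the control cultures. The arrays of replicate 1 gave ratios of 0.57 and 0.47 and those of replicate 2 gave 0.19 and 0.17, with a mean of 0.35 ± 0.24. Ephb2 had 10.14 and 9.92 in the mutant cultures and 9.98 and 9.61 in the control cultures. These values overlapped across replicates, and the ratio was 0.24 ± 0.10 with an unadjusted p of 0.080. A second Ephb2 probe above background gave 0.01 and -0.01 in the replicates. The 2 Ephb2 probes thus differed by 0.238 log2 units, close to the ratio itself.

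Ephb3 had a ratio of -0.11 in replicate 1 and 0.67 in replicate 2, a mean of 0.28 ± 0.56. Among the A class, Epha2, a receptor of ephrin-A1 with a role in vessel growth, had log2 signals of 10.75 and 10.34 in the mutant cultures and 10.64 and 11.08 in the controls. Replicate 2 of the controls was the highest and replicate 2 of the mutants the lowest, and the ratio was 0.11 in replicate 1 and -0.74 in replicate 2. Epha4, which binds ephrins of both classes, had 0.06 and -0.49. The other measured A-class receptors had means of -0.16 for Epha7, -0.09 for Epha1 and 0.10 for Epha3. Over the 8 Eph receptors the median was 0.00, and 6 of the 8 had opposite signs in the replicates.

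Ephrins, the membrane-bound ligands of these receptors, had a median ratio of 0.02 over 6 genes. Efnb2 had log2 signals of 10.66 and 10.45 in the mutant cultures and 10.60 and 10.26 in the control cultures. The ratio was positive on all 4 arrays, from 0.01 to 0.22, but the genotypes overlapped, and the mean was 0.12 ± 0.09 with an unadjusted p of 0.26. Efnb1, a ligand of the same class, had -0.05 and 0.53. Efna5 had a negative ratio on all 4 arrays with a mean of -0.17 ± 0.11 and an unadjusted p of 0.17. Its second probe gave 0.03 in replicate 1 and -0.05 in replicate 2. Efna4 had 0.07 ± 0.08, and Efna1 had -0.02 ± 0.15. The Efna1, Efna3 and Efna4 probes lie in a row on chromosome 3 of mm9, with 42.4 kb from Efna1 to Efna3 and 19.6 kb from there to Efna4. Efna3 had a ratio of -0.05, so the ratios along this cluster all lay within 0.07 of 0.

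**Figure D3:**
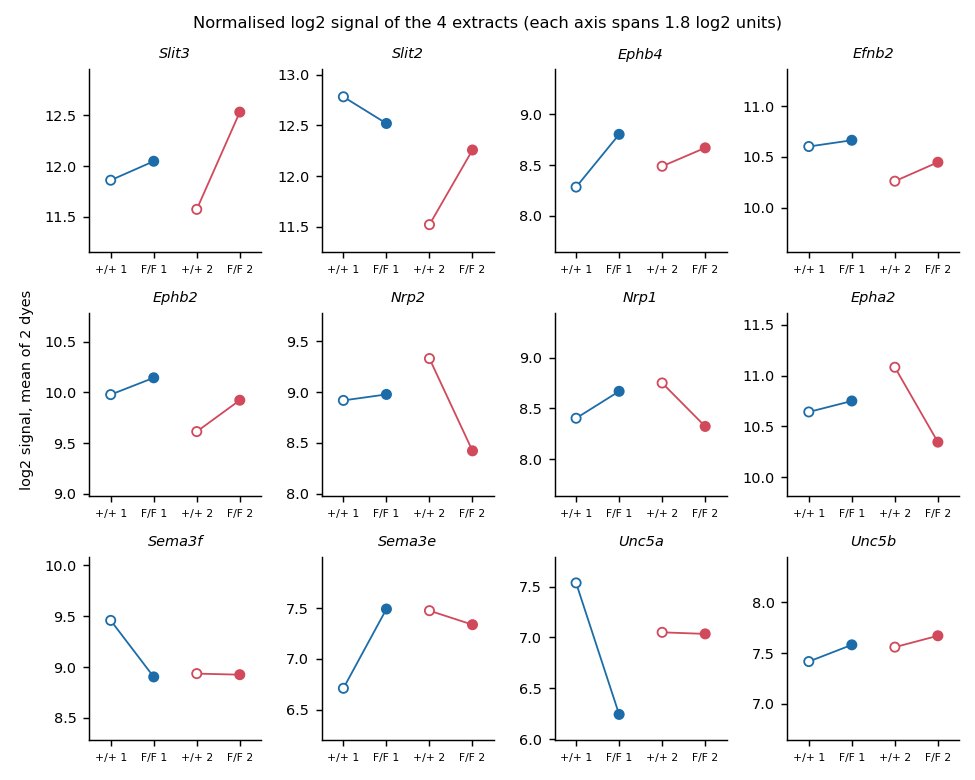
Normalised log2 signal (y axis, mean of both dyes) of 12 guidance genes in the 4 RNA extracts (x axis), with control cultures as open and mutant cultures as filled points, replicate 1 in blue and replicate 2 in red. Each panel spans the same 1.8 log2 units around its own middle. Lines join the extracts hybridised together, and they slope in opposite directions for Slit2, Nrp1, Nrp2, Epha2 and Sema3e.

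Among the receptors of semaphorins, the neuropilins differed most between replicates. Nrp2, a receptor of Sema3f and of VEGF-C, had log2 signals of 8.98 and 8.42 in the mutant cultures and 8.92 and 9.33 in the control cultures. Replicate 1 showed a ratio of 0.06 and replicate 2 of -0.91, with a mean of -0.42 ± 0.68. Nrp1, a receptor of Sema3a and a co-receptor of VEGF, had 0.27 in replicate 1 and -0.43 in replicate 2. A second Nrp1 probe above background gave -0.09 and 0.43, the reverse order. The difference of 0.256 between the mean ratios of these probes was the largest among the 12 guidance genes with several probes past the filter.

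The plexins, which carry the semaphorin signal into the cell through a GTPase-activating domain, had mean ratios from -0.24 to 0.12. Plxna2 was lower on all 4 arrays, with -0.04 in replicate 1 and -0.43 in replicate 2 and a mean of -0.24 ± 0.28. Its other probes past the filter had means of -0.20 and -0.04. Plxna4 had a mean of -0.20 ± 0.11 with an unadjusted p of 0.12, and its second probe had -0.02. Plxna3 had 0.12 ± 0.08. Plxna1 had -0.04 ± 0.11. Plxnd1, the receptor of Sema3e in vessels, had 0.05 ± 0.15. Plxnb1 and Plxnb2, receptors of class 4 semaphorins, had 0.09 and -0.002. Among the A-type plexins, Plxna3 was thus above 0 and the other 3 below it.

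Among the semaphorins, Sema3e, a secreted ligand of Plxnd1, had the highest mean. Its log2 signal was 7.49 and 7.34 in the mutant cultures and 6.71 and 7.47 in the controls, with replicate 1 of the controls below the other 3. The ratio was 0.78 in replicate 1 and -0.14 in replicate 2, a mean of 0.32 ± 0.65. Its second probe also had the higher ratio in replicate 1, with 0.47 and 0.03. Sema3f had log2 signals of 8.90 and 8.92 in the mutant cultures and 9.46 and 8.93 in the controls. Its ratio was -0.56 and -0.01, and the second Sema3f probe gave -0.43 and -0.06. Here too a control culture of replicate 1 stood apart, but above the others.

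Sema6d, a transmembrane semaphorin that binds Plxna1, had a mean ratio of 0.25 ± 0.15. Its ratio followed the dye: it was 0.51 and 0.60 on the arrays with Atg7F/F in Cy5 and -0.22 and 0.11 on the arrays with Atg7+/+ in Cy5. Sema4f had 0.43 and -0.15 in the replicates, and Sema5a had 0.25 and -0.34. The other 7 measured semaphorins, Sema3b, Sema4a, Sema4c, Sema4d, Sema5b, Sema6b and Sema6c, had means between -0.07 and 0.03. Sema5b was the only semaphorin with a positive ratio on all 4 arrays, from 0.01 to 0.07, with a mean of 0.03 ± 0.03. Sema5b, at log2 signals of 6.58 to 6.64, and the class 4 members of these 7, at 6.51 to 6.87, were dim in every extract. They lay near the level where the background correction pulls ratios towards 0.

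Unc5a was a netrin receptor measured in full only in the control cultures. It is a dependence receptor that can trigger cell death when its ligand is absent. Its log2 signal was 6.24 and 7.04 in the mutant cultures and 7.54 and 7.05 in the controls. In the mutant culture of replicate 1 it was well above background on 0 of 2 arrays, and in every other extract on 2 of 2. The ratio was -1.29 in replicate 1 and -0.02 in replicate 2, so the mean of -0.66 ± 0.91 rested on 1 replicate. Since the mutant signal of that replicate was not well above background, neither the -1.29 nor the mean is a measured size. Unc5b, the netrin receptor known from endothelium, had log2 signals of 7.58 and 7.67 in the mutant cultures and 7.42 and 7.56 in the controls. Its ratio was 0.138 ± 0.04 with an unadjusted p of 0.20, and its control cultures lay 0.142 apart. Unc5c had 0.58 and -0.12. Ntn4, a netrin-like protein of basement membranes, had -0.29 and 0.58, and in the control culture of replicate 2 it was above background on 0 of 2 arrays, so its 0.58 is no measured size either. Ntn3 had -0.06 ± 0.26.

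For many guidance genes the replicates gave different ratios. The 2 replicate ratios had opposite signs for 27 of the 45 genes, or 60%, against 54.5% of all genes. They lay at least 0.5 log2 units apart for 16 of the 45, or 35.6%, against 12.5% of all genes. This threshold was chosen after the values were seen, and the share was not tested. The median gap was 0.253 log2 units for the guidance genes and 0.166 for all genes. Replicate 2 had the higher ratio for 8 of the 16, namely Slit2, Slit3, Robo1, Ephb3, Efnb1, Ntn4, Sema3f and Unc5a. Replicate 1 had the higher ratio for the other 8, namely Nrp1, Nrp2, Epha2, Epha4, Sema3e, Sema4f, Sema5a and Unc5c. Of the 16, 13 had opposite signs.

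Both genotypes showed differences between their own cultures. The absolute difference between the Atg7+/+ extracts had a median of 0.264 log2 units over the guidance genes and 0.126 over all genes. Between the Atg7F/F extracts it was 0.154 and 0.158. Gene by gene, the control cultures lay further apart than the mutant cultures for 24 of the 45, and for 8 of the 16 with wide replicate gaps. For 32 of the 45 guidance genes the control cultures lay further apart than the genotypes on average, as they did for 66.3% of all genes. Among the 16 genes with wide gaps, the extract furthest from the mean of the other 3 varied by gene. It was mutant replicate 1 for 3 genes, mutant replicate 2 for 5, control replicate 1 for 3 and control replicate 2 for 5. This was not counted over all genes, and the part of single cultures in the gaps was not tested.

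**Figure D4:**
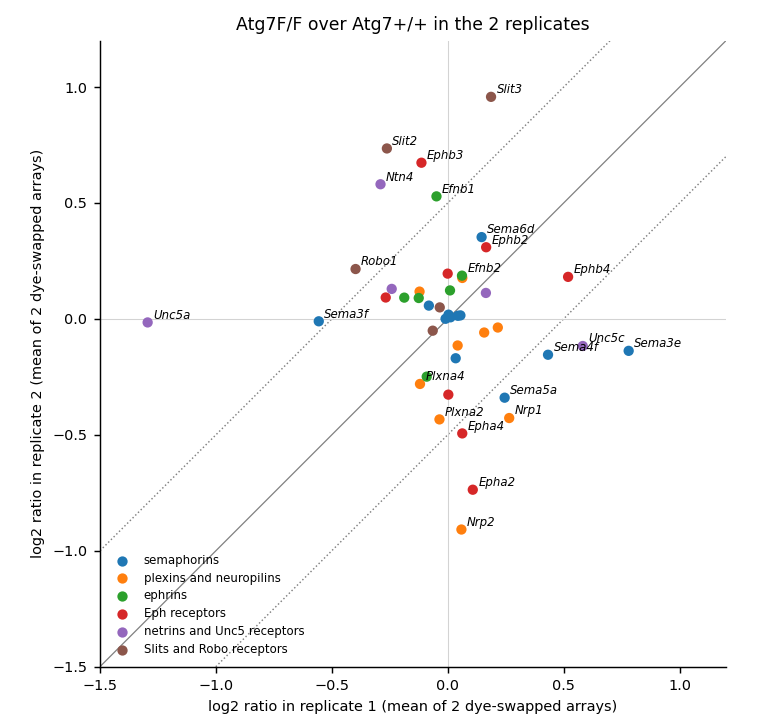
Mean log2 ratio of Atg7F/F over Atg7+/+ in replicate 2 (y axis) against replicate 1 (x axis) for the 45 measured guidance genes, coloured by role group. The solid line marks equal ratios and the dotted lines a difference of 0.5 log2 units. The 16 genes on or outside the dotted lines include Slit2 and Slit3 above and Nrp2 and Epha2 below.

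Markers of other cell types moved between the extracts as well. All 17 endothelial markers fixed for the comparison were measured. Of them, 13 had negative ratios on all 4 arrays and 0 positive ones, beside 9.95% and 10.6% of all genes. With median centring the shares over all genes fell to 2.14% and 4.86%, and the endothelial markers were not counted there. The median ratio of the list was -0.35, and by replicate it was -0.19 and -0.48. Pecam1, an endothelial adhesion molecule, had -0.48 ± 0.10. Their summed linear signal was 14491.5 and 16184.1 in the mutant cultures and 16081.1 and 28394.7 in the control cultures. The highest sum belonged to replicate 2 of the controls. In that extract Nrp1 on its brighter probe, Nrp2 and Epha2 were highest and Slit2, Efnb1 and Ntn4 lowest. Mmrn2 and Emcn had the highest log2 signals of the list there, 13.52 and 12.79, so they weigh most in the sum. Flt1 and Cldn5 were lower there than in the other extracts, with 10.25 and 7.22. The part of endothelial RNA in these ratios was not tested, and in RNA from whole cultures fewer cells of a type and less RNA per cell cannot be told apart. The 8 adventitial fibroblast markers had medians of -0.41 in replicate 1 and 0.52 in replicate 2. Cd34 and Dpt were negative on all 4 arrays, with means of -0.69 and -0.33. The mean was -0.05 for Pi16 and positive for Pdgfra, Clec3b, Dcn, Lum and Ly6a, from 0.07 to 0.38. The summed signal of the 8 markers was 7793.7 and 6215.7 in the mutant cultures and 9950.8 and 5999.5 in the control cultures. Their part in the results was likewise not tested. The pericyte markers, 6 of 7 measured, had a median of -0.17 in replicate 1 and 0.51 in replicate 2, with summed signals of 19203.1 and 23454.3 in the mutants and 22372.6 and 23532.4 in the controls. The neuron and Schwann cell markers, 6 of 12 measured with the neuronal markers Elavl3, Elavl4, Rbfox3, Snap25 and Syt1 among those not measured, had a median of 0.28, with 0.32 in replicate 1 and -0.05 in replicate 2. Of these, Ngfr had 2.73 and -1.06 and Sox10 had 1.45 and -0.48 in the replicates, wider gaps than in any guidance gene. Their summed signal was 8308 and 12059.1 in the mutants and 8585.2 and 7807.1 in the controls, and their part in the results was not tested. The macrophage and leukocyte markers, 5 of 9 measured with Ptprc, Adgre1 and Itgam among those not measured, had a median of 0.04. By replicate it was -0.04 and 0.03. Cd68 with -0.37 and Cd14 with -0.09 were negative on all 4 arrays and Csf1r with 0.16 positive. Lyz2 had -0.50 and 0.58 in the replicates. The summed signal of this list was 2049.8 and 4620.9 in the mutants and 2666.8 and 3298.1 in the controls, and its part was not tested.

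The labelled cell type and genotype were read from the same arrays. Of 12 smooth muscle markers, 11 were measured, including Acta2, Myh11 and Tagln, and Myocd was not. Their median ratio was -0.06. Actg2 was positive on all 4 arrays with 0.42 ± 0.32, and Acta2 with -0.17 ± 0.01, Tagln with -0.23 ± 0.06 and Synpo2 with -0.17 ± 0.01 were negative on all 4. With median centring these means kept their sign, at 0.52, -0.03, -0.06 and -0.11 in that order, but 0 of the 4 genes had one sign on all arrays. Atg7 had a ratio of -1.22 ± 0.07 on the probe above background, with an adjusted p of 0.938. This probe was above background in the mutant channel on all 4 arrays, so Atg7 transcript was still detected there, and the other Atg7 probe was above background on no array. Depending on the array and channel, 43.3% to 45.5% of spots passed background, and 0 were saturated.

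The intracellular partners of the guidance receptors were read in the same way. Of 69 partner genes on the list, which held small GTPases, their exchange factors, kinases, collapsin response mediators and co-receptors, 53 were measured. Their median ratio was -0.01, and 0 passed the test. The unadjusted limma p was below 0.05 for 2 of the 53, beside 2.98% of all genes. Ratios were positive on all 4 arrays for 7 and negative for 6, beside 10.6% and 9.95% of all genes. Those with positive ratios were Arhgef12, Furin, Gpc1, Kalrn, Limk1, Tiam1 and Vav2. Kalrn is a guanine nucleotide exchange factor that acts downstream of Eph receptors. Its log2 signals were 9.01 and 9.21 in the mutant cultures and 8.65 and 8.56 in the controls. Its ratio was 0.51 ± 0.21 with an unadjusted p of 0.021, but 0.25 when its 2 probes were averaged. Limk1, the kinase that phosphorylates cofilin, had 0.30 ± 0.07, and Gpc1, a glypican that binds Slits, had 0.27 ± 0.07. Those with negative ratios were Arhgef15, Pak3, Rhoa, Rnd1, Rock1 and Srgap1. Rnd1, a small GTPase that binds plexins, had -0.31 ± 0.14. Rhoa, the GTPase that drives actomyosin contraction, had -0.23 ± 0.01 on its brighter probe. The value was -0.03 with its 2 probes averaged and -0.12 with median centring. Arhgef15, an exchange factor that binds Epha4, had -0.23 ± 0.12.

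The promoters of Slit3, Ephb4 and Efnb2, which had positive ratios on all 4 arrays, and of Slit2, which had opposite ratios in the replicates, are shown to compare their base composition. Each runs 5′ to 3′ from 250 bases before to 50 after the RefSeq start on GRCm38.p6, with matches of searched motifs on either strand in capitals.
Slit3, chr11:35121206-35121505, plus strand: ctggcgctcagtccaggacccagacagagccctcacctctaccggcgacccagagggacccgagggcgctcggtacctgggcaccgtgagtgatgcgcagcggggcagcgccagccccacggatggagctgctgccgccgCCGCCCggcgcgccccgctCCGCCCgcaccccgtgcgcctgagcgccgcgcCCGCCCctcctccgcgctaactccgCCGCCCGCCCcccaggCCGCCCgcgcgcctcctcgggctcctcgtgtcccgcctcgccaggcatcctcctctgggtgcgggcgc
Slit2, chr5:47982905-47983204, plus strand: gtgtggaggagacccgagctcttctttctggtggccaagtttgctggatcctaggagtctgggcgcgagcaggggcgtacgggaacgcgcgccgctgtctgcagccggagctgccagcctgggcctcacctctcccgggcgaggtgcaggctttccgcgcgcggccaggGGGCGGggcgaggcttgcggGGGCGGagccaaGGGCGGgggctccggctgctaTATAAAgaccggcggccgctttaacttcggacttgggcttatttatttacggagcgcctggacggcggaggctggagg
Ephb4, chr5:137349859-137350158, plus strand: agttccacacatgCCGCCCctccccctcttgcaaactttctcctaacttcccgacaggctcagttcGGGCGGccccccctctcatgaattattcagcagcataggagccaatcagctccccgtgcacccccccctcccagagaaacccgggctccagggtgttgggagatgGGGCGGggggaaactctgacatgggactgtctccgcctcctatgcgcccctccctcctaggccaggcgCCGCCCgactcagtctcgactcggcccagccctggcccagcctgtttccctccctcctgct
Efnb2, chr8:8661193-8661492, minus strand: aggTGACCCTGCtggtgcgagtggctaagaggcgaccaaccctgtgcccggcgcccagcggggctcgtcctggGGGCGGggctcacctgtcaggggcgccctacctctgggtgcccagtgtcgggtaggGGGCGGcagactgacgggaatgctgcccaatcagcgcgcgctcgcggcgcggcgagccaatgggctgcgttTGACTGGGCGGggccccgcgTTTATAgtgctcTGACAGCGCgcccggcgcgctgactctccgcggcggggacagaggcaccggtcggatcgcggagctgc
The motifs searched were the GC box GGGCGG, the TATA element TATAAA, the E-box CACGTG, the antioxidant response core TGACNNNGC and the CArG box of serum response factor. GGGCGG occurred 6 times in the Slit3 window, 4 times in that of Ephb4 and 3 times each in those of Slit2 and Efnb2, where matches may overlap each other or another motif. TATAAA occurred once each in Slit2 and Efnb2, and TGACNNNGC occurred 3 times in Efnb2 only among these 4.

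A promoter of the table matched 58 of the 67 guidance genes, 40 of them measured and 18 not. GGGCGG stood in 77.5% of the measured and 66.7% of the other guidance promoters, against 35.9% of all 27025 promoters of the same length. TATAAA stood in 5.0% of the measured guidance promoters and 14.2% of all. CACGTG stood in 5.0% and 7.24%, TGACNNNGC in 10.0% and 12.5%, and the CArG box in 5.0% and 1.57%. The median number of CpG dinucleotides was 22.5 in the measured guidance promoters, 22 in the others and 7 in all promoters. Guidance promoters were thus rich in CpG whether or not the gene was measured in these cells. These matches describe letters in a window and were not tested.

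**Figure D5:**
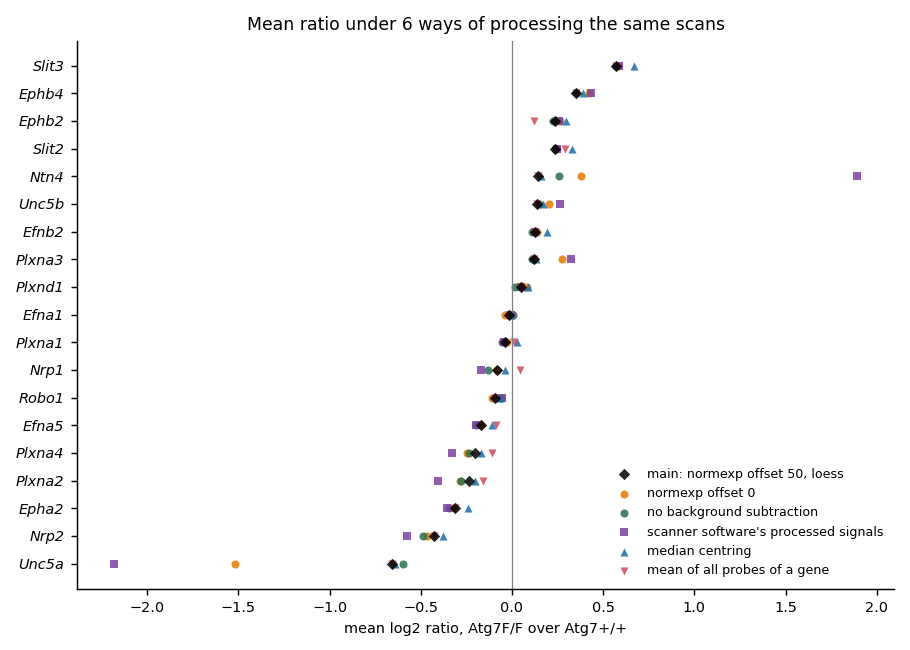
Mean log2 ratio (x axis) of 19 guidance genes (y axis) from the same scans under 6 settings, with the reported one as black diamonds. Slit3 stayed between 0.57 and 0.67, while Ntn4 reached 1.89 and Unc5a -2.18 with the processed signals of the scanner software (purple squares).

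The mean ratio of 14 of the 19 guidance genes named in full moved by over 1.5 times or changed sign under an alternative. The other 5 were Slit2, Slit3, Ephb4, Epha2 and Nrp2. Slit3 stayed between 0.57 and 0.67 and Ephb4 between 0.35 and 0.43 under the 12 alternatives that kept both replicates. Many of these could not move Slit3, Ephb4, Epha2 and Nrp2, which had 1 probe past the filter each. Other variance models, filters on dim probes, probe averaging and gene names left their ratios unchanged. The deposited table repeats the processed signals. Their narrow ranges are thus partly fixed by probe number. Ntn4 and Unc5a, each not well above background in 1 extract, moved most, and a filter that asks for both genotypes on all arrays removes them. Ephb2 ranged from 0.12 to 0.30, Plxna2 from -0.40 to -0.16, Plxna3 from 0.11 to 0.32, Plxna4 from -0.33 to -0.11, Efna5 from -0.20 to -0.09 and Unc5b from 0.14 to 0.27. Ntn4 ranged from 0.15 to 1.89 and Unc5a from -2.18 to -0.60, with the extremes under the processed signals of the scanner software. The sign of the mean changed for Efna1 without background subtraction, for Nrp1 with the mean of its probes, and for Plxna1 with that mean and with median centring.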

How the data were processed

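RNA of primary aortic smooth muscle cells was measured on 4 two-colour Agilent arrays, 2 per pair of replicate extracts with dyes exchanged, per the labels. The deposited scanner files hold mean and median background intensity per spot, along with processed signals and Cy5-to-Cy3 ratios as log10 values. The submitters' processing notes name Agilent Feature Extraction 10.1.1.1 as the authors' software. The deposited value table holds the authors' log2 ratios of those processed signals.

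Mean intensity was corrected with limma's normexp (offset 50) and loess-normalised with control spots at weight 0 (limma 3.58.1, R 4.3.3). Averaging dye-swapped arrays removes a constant dye effect. Of 41174 probes, 36 with outlier spots were dropped, and 17109 were well above background in 1 genotype's channel on all 4 arrays. The brightest probe stood for each of 12367 genes. lmFit and eBayes gave two-sided p-values with 3.18 degrees of freedom, adjusted by Benjamini-Hochberg. The code was tested on simulated data. Arrays give no counts, so the number of arrays limits precision.

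Extracts of one number were hybridised together, so the test is paired by construction, and their deviations from the genotype means correlated at 0.177. Genes were named in full by a rule: up to 6 per direction with the smallest p among those of one sign on all 4 arrays, those with replicates or probes at least 1 log2 unit apart, those above background in 1 genotype only, and a fixed set of vascular guidance genes. Other genes are given by family. Replicate gaps of 0.5 were added after the values were seen. The gene family, the lists and the tests were chosen with earlier results of these data known. Sequences are from the probe column of the deposited files and from RefSeq.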

Additional observations from a re-analysis of the deposited data

How the results depend on the processing

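With 2 replicates and signals near background for many of these genes, small differences were not detectable. Larger ones need not pass the test either. Atg7, with a ratio of -1.22 ± 0.07, had an adjusted limma p of 0.938, and 0% of all genes passed. Under the 12 alternatives that kept both replicates, 0 guidance genes passed the test, also without the replicate block (0) and with the pair of extracts as a random block (0, smallest adjusted p 0.591). A slide block was not run, since there was 1 slide.

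The median ratio of the guidance genes, 0.01, was 0.0147 with a normexp offset of 0, -0.0113 without background subtraction, -0.0092 with the scanner software's processed signals and with the deposited log2 table, and 0.0225 with median centring. The partner genes' median, -0.01, was -0.0275, -0.0486, -0.0486 and 0.0305 under the last 4 of these, and 0.0143 with the mean of all probes. Genes of one sign on all 4 arrays numbered 6 higher and 5 lower without background subtraction, where 10.6% and 10.8% of all genes did so, and 3 higher and 0 lower with median centring. Replicate gaps of at least 0.5 numbered 26 with the processed signals and 26 with the deposited table, 57.8% of the guidance genes against 26.6% and 26.7% of all genes. Leaving out 1 replicate gave 17 to 21 genes higher and 15 to 16 lower on the remaining arrays, where only 2 arrays must share a sign and 29.3% to 38.1% of all genes were higher and 29.9% to 35% lower. It gave medians of 0.0097 to 0.0151 for guidance genes and -0.012 to 0.0083 for partners. The causes were not tested. Among the mean ratios of 19 named guidance genes under the alternatives, 251 values moved by less than the spread between replicates and 13 by more. The 251 include values with 1 replicate left out, whose shift is always below that spread. They also include the other variance models, which leave the mean ratio unchanged. These counts therefore say little about stability.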
